A study of Mus musculus with 16 samples.

Results

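The genes described here are 9 members of the TALE class of homeobox genes, namely Meis1, Meis2, Meis3, Pbx2, Pbx3, Pbx4, Pknox1, Pknox2 and Tgif1, out of 21755 protein-coding genes of the mouse annotation on chromosomes 1 to 19 and X. They were chosen by name, with earlier results of these data known. For each of them, every chromatin loop was taken that had an anchor in the gene or within 100 kb of its start site, that spanned the gene, or that lay with both anchors in the gene and its 1 Mb flanks. The series profiled cochleae of C57Bl/6 mice at postnatal day 0 by the labels (P0/1 by the design text) with Micro-C in 4 replicates, ATAC-seq in 2, and CUT&RUN for H3K4me1 in 3, H3K27ac in 3 and CTCF in 4, with no treatment or mutant group. In Micro-C, crosslinked chromatin is digested by micrococcal nuclease and nearby ends are ligated, so that a read pair stands for a contact. The authors merged the 4 Micro-C replicates, 1 of which the study's results call technical, and deposited 6798 loops called in 10 kb bins, each with its anchor bins and a false discovery rate (FDR) below 0.1. The ATAC-seq and CUT&RUN libraries were not analysed here.

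TALE homeodomain proteins carry a short insertion between helices of the homeodomain, which gives the class its name. MEIS and PKNOX (also called PREP) proteins bind DNA as partners of PBX proteins, and such complexes also hold HOX proteins in many embryonic tissues. TGIF1 is a repressor of the same class that acts in TGF-beta and retinoid signalling. Genes that encode regulators of development often lie in gene-poor stretches of the genome, far from the enhancers that act on them.

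Of the 9 genes, 6 had a loop anchor in the gene or within 100 kb of the start site (Meis1, Meis2, Pbx3, Pknox1, Pknox2 and Tgif1), and 3 had none (Meis3, Pbx2 and Pbx4). Among all protein-coding genes 63.7% met the same rule, so that the share of these genes was near the background. The start site itself lay in an anchor bin in 4 of 9 (Meis1, Pbx3, Pknox2 and Tgif1), against 7.1% of all genes. The same 4 genes had an anchor in the gene body, against 24.1%, and 3 of them (Meis1, Pbx3 and Pknox2) had both anchors of a loop overlapping the body, against 2.05%. Meis1 met this last rule by an overlap of only 183 bp at its 3′ end. Loops spanned 4 genes (Meis2, Pbx3, Pknox1 and Tgif1), against 28.1%. Gene length enters these counts, because 4 of the 9 genes are 100 kb or longer, compared with 11.4% of all genes. Among the 2489 genes of that length, 68.6% had an anchor in the body, 17.3% held both anchors of a loop and 13.5% had the start site in an anchor bin. Of Meis1, Meis2, Pbx3 and Pknox2, which are the long members, 3 met each of these rules and Meis2 met none. With 4 genes these shares carry little weight, and the merged list allows no replicate error for any of them. The cochlea holds many cell types, and a loop made in few cells cannot be told apart from a weak loop in many. A loop list holds no expression values, so the tissue could not be checked against marker genes.

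**Figure D1:**
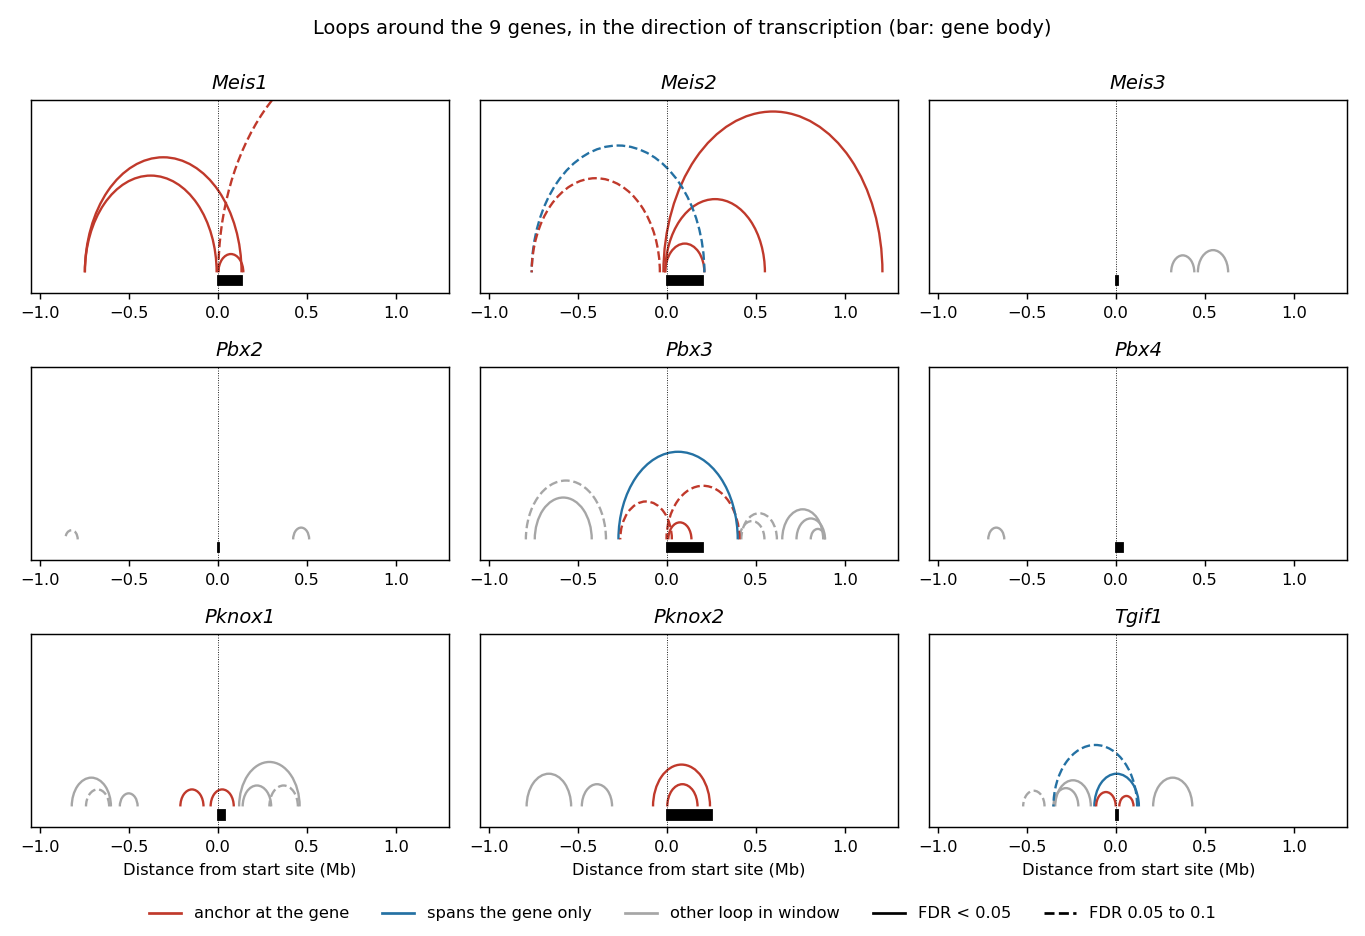
Loops around each of the 9 genes, plotted against the distance from the start site (Mb) in the direction of transcription, with the gene body as a black bar. Red arcs have an anchor in the gene or within 100 kb of its start site, blue arcs only span the gene, grey arcs lie elsewhere in the window, and dashed arcs have an FDR from 0.05 to 0.1. Meis1 and Meis2 have long arcs and no grey ones, while Meis3, Pbx2 and Pbx4 have grey arcs only. The 1740 kb loop of Meis1 runs out of its panel.

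The 6 genes together had 17 anchored loops. Their distances ran from 80 to 1740 kb with a median of 290 kb, where the median of the whole list was 280 kb. The FDR ran from 0.000662 to 0.0784 with a median of 0.0128, compared with 0.0113 for all loops. Of the 17 loops, 13 had an FDR below 0.05, which is 76.5% (95% Wilson interval 52.7 to 90.4, counting error over loops only), against 78.8% of the list. Thus the median distance and median FDR of these loops were near those of the list, but the distances differed between genes. A distance of 500 kb or more was reached by 6 of the 17 loops, against 25.5% of the list. All 6 were anchored at Meis1 or Meis2, whose remaining anchored loops were 140 and 220 kb long. The anchored loops of Pbx3, Pknox1, Pknox2 and Tgif1 ran from 80 to 410 kb. This difference between the genes was not tested. The 8 loops that spanned a member were 130 to 1230 kb long, and 4 of them were among the 17. Counting every loop within the genes and their 1 Mb flanks gave 43, of which 24 were neither anchored at a member nor spanning it.

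**Figure D2:**
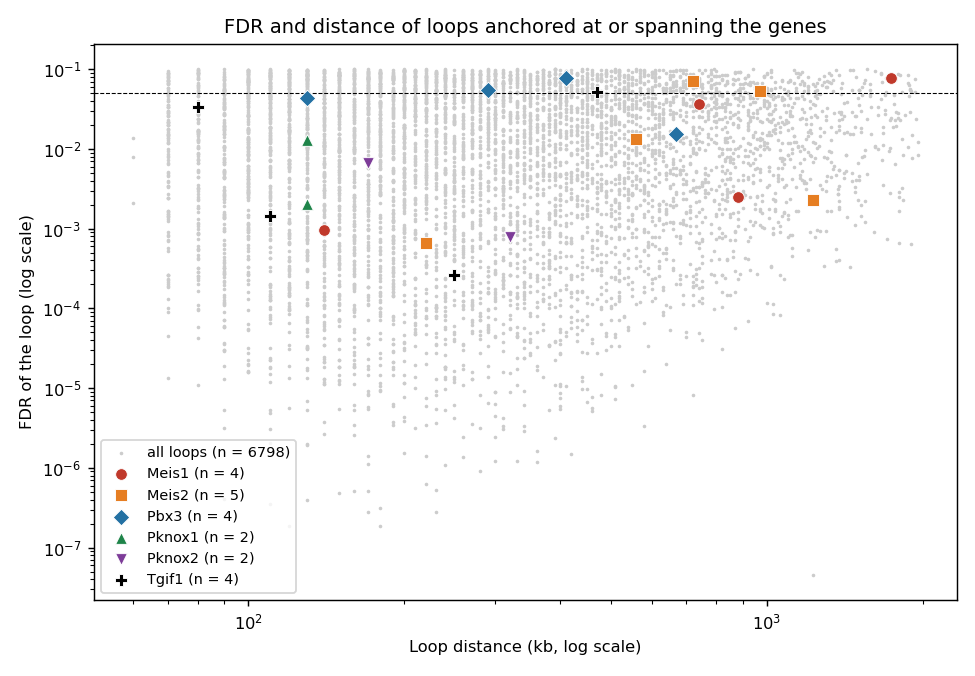
FDR of each loop against its distance (kb), both on log scales. Grey points are the 6798 loops of the list and coloured symbols the 21 loops that are anchored at or span a member, with the number per gene in the legend. The member loops lie within the cloud of all loops, and the dashed line marks an FDR of 0.05.

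Meis1 encodes a homeodomain partner of PBX and HOX proteins that is known for its part in blood stem cells, heart and limb. It lies on the minus strand of chromosome 11 (GRCm38, chr11:18879817-19018985, 139.2 kb), and only 1 other protein-coding start site lay within 1 Mb of its own. As many or more such neighbours were found for 99.6% of genes, whose median was 29. Meis1 had 4 anchored loops, a number that 7.53% of genes reached, and its window held no loop other than those at the gene. The loop of lowest FDR was 140 kb long and joined the bin of the start site, chr11:19010001-19020000, with the bin at the 3′ end of the gene, chr11:18870001-18880000 (FDR 0.00097). A lower FDR was given to 21.6% of all loops. On the transcript used for exon numbers, which has 12 exons, the start-site bin held exons 1 to 6, and the 3′ bin reached only 183 bp into the gene record and held no exon of this transcript.

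A distal bin upstream of Meis1, chr11:19760001-19770000, was looped to both ends of the gene. Its loop to chr11:18880001-18890000, which holds exons 10 to 12, was 880 kb long with an FDR of 0.0025. Its loop to chr11:19020001-19030000, which begins 1.02 kb upstream of the start site, was 740 kb long with an FDR of 0.0366. The distal bin began 741 kb upstream of the start site and overlapped no annotated gene, and its nearest protein-coding start site was that of Spred2, an inhibitor of Ras-MAPK signalling, at 154 kb. The bins at each end of Meis1 were neighbours in the 10 kb grid and not the same bin. The remaining loop ran 1740 kb in the direction of transcription from the start-site bin to chr11:17270001-17280000, 12.4 kb from the start site of C1d, which encodes a cofactor of the RNA exosome. It was longer than 99.4% of all loops, and its FDR of 0.0784 was the highest among the 4.

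Meis2, the closest relative of Meis1 here and a gene known for its role in cranial neural crest and palate, lies on the minus strand of chromosome 2 (chr2:115863064-116065839, 202.8 kb) with 2 other protein-coding start sites within 1 Mb. It also had 4 anchored loops, but no anchor lay inside the gene. Its nearest anchor bin, chr2:116070001-116080000, began 4.16 kb upstream of the start site and overlapped the non-coding genes G630016G05Rik and 2810405F15Rik. A 220 kb loop joined this bin with chr2:115850001-115860000, which ended 3064 bp beyond the 3′ end of the gene, and its FDR of 0.000662 was the lowest among the 17 anchored loops. Therefore both Meis1 and Meis2 had a loop between bins at their ends, which overlapped the ends of the record at Meis1 and lay just outside it at Meis2.

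As at Meis1, a bin upstream of Meis2 was looped to both sides of the gene. This bin, chr2:116820001-116830000, began 754 kb upstream of the start site, overlapped no annotated gene and lay 48.7 kb from the start site of Tmco5. Its loop to the 3′ bin chr2:115850001-115860000 was 970 kb long (FDR 0.0537), and its loop to chr2:116100001-116110000, which began 34.2 kb upstream of the start site, was 720 kb long (FDR 0.0705). Both of these exceeded 0.05, whereas the corresponding loops of Meis1 did not. Meis2 had a further pair of loops in the direction of transcription. One joined chr2:116070001-116080000 with chr2:115510001-115520000 (560 kb, FDR 0.0134), whose nearest coding start site was that of BC052040 at 61.7 kb. The other joined chr2:116080001-116090000 with chr2:114850001-114860000 (1230 kb, FDR 0.00228), 195 kb from the start site of Dph6, an enzyme of diphthamide synthesis. Altogether 4 loops spanned Meis2, which 1.02% of genes reached.

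**Figure D3:**
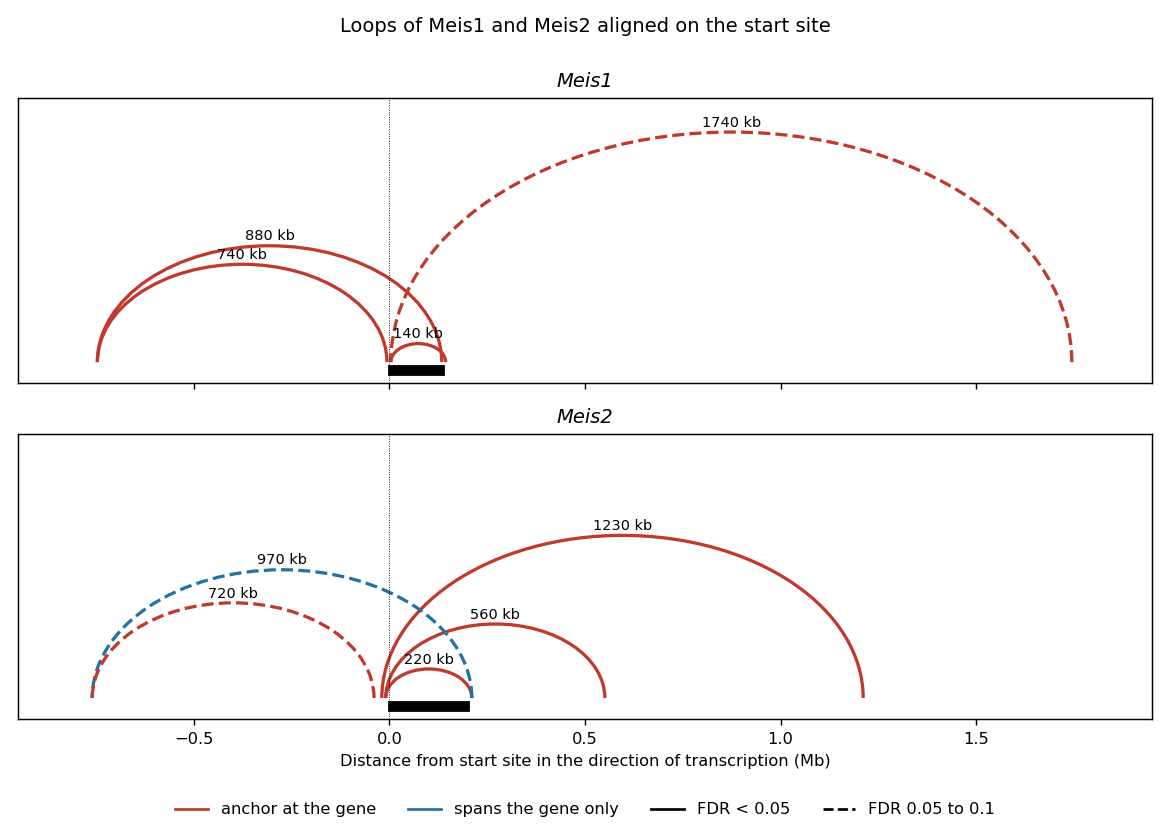
Loops of Meis1 and Meis2 drawn against the distance from each start site (Mb) in the direction of transcription, with the gene body as a black bar, the loop distance in kb above each arc and dashed arcs for an FDR from 0.05 to 0.1. In both genes a short arc joins bins at the gene ends (140 and 220 kb). A bin 741 or 754 kb upstream is joined to bins at or near both ends, with solid arcs at Meis1 and dashed ones at Meis2. At Meis2 the shorter of these 2 arcs ends 34.2 kb upstream of the start site.

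The arrangement at Meis1 and Meis2 was counted over all 2489 genes of 100 kb or more with definitions that were set after these loci had been seen, so that the counts describe how common it is and test nothing. A loop between bins within 10 kb of both gene ends was found for 2 of the 4 long members and for 3.82% of long genes. Both ends (within 50 kb) looped to each other and to 1 shared bin were found for the same 2 members and for 2.37%, or 59 genes. Of these 59 genes, 14 also had the loop within 10 kb of both ends. The shared bin lay a median of 281 kb from the gene, and in 9 of the 59 it lay as far away as at Meis1 or farther, Meis1 and Meis2 included. The median number of other start sites within 1 Mb was 11 in the 59 genes, and Meis1 and Meis2 were the 2 with the fewest.

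CTCF, the zinc finger protein that blocks loop extrusion, is known to bind a directional motif at many loop anchors. A 14-base CTCF consensus was searched on both strands with at most 1 mismatch, and 48.4% of the 11828 anchor bins of the list held a match, compared with 21.4% of 255803 bins of the genome. Of the 31 anchor bins of the 17 loops, 12 held a match, or 38.7% (95% Wilson interval 23.7 to 56.2), an interval that includes the share of all anchor bins. At 6 of the 17 loops neither anchor had a match, but the share over all loops was not counted, so this number has no background beside it. Only 2 loops had 1 orientation at each anchor, one with both matches in the same direction and one divergent, while 68.3% of 1502 such loops in the list were convergent. Both of these loops ended at the distal bins of Meis1 (740 kb) and Meis2 (720 kb). A match in the reference sequence is not evidence of binding in the cochlea.

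Some of the best matches are given here from the GRCm38 reference. They are those at bins that Meis1 and Meis2 loops share and at the anchors inside Pknox2 and Tgif1 of the loops of lowest FDR. The shared Meis2 bin chr2:116070001-116080000 had 2 mismatches at best and is not shown. Matches within the limit at the Pknox2 start-site bin, at chr11:19020001-19030000 beside Meis1 and at chr2:116100001-116110000 beside Meis2 are not shown. Nor are those at the far bins of the 560 and 1230 kb loops of Meis2 and the 410 and 290 kb loops of Pbx3. Each run is 50 bases, written 5′ to 3′ on the strand of the match, and capitals mark the 14 bases aligned with the consensus. The match at the Meis2 3′ bin had no mismatch and lies on the plus strand at chr2:115855941-115855990. That of the Meis2 distal bin had 1 and lies on the plus strand at chr2:116824569-116824618. The Meis1 distal bin had its match, with 1 mismatch, on the minus strand at chr11:19761233-19761282. The matches of Pknox2 (chr9:36904475-36904524) and Tgif1 (chr17:70852046-70852095) had 1 mismatch each and lie on the plus strand. The last line is the best match of the Meis1 start-site bin, on the minus strand at chr11:19012994-19013043, which had 2 mismatches and so did not count. Of the 8 anchors of the lowest-FDR loops of Meis1, Pbx3, Pknox2 and Tgif1, the other 5 also had 2 mismatches at best and are not shown.
Meis2 3′ bin: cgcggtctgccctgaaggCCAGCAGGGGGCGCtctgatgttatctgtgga
Meis2 distal bin: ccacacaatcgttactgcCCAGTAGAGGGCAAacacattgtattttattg
Meis1 distal bin: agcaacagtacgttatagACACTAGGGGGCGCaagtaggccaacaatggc
Pknox2 exon 10 bin: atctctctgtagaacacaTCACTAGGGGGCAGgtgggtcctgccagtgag
Tgif1 start-site bin: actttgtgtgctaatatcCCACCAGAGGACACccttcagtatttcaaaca
Meis1 start-site bin: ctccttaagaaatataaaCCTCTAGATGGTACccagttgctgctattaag

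Several anchors were used more than once. Of the 31 anchor bins, 6 belonged to 2 loops and none to 3 or more, against 13.4% of all anchor bins with 2 or more loops. They include the start-site and distal bins of Meis1, chr2:115850001-115860000, chr2:116070001-116080000 and chr2:116820001-116830000 at Meis2, and chr2:33960001-33970000 near Pbx3.

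Pbx3, which encodes a DNA-binding partner of HOX and MEIS proteins, lies on the minus strand of chromosome 2 (chr2:34171457-34373142, 201.7 kb). It had 3 anchored loops, all with an anchor in the gene, and the most loops of the 9 in its window, 11, which 4.79% of genes reached (median 5). The start-site bin chr2:34370001-34380000, with exons 1 and 2 of its 9 exons, was looped over 410 kb to chr2:33960001-33970000 (FDR 0.0783). The nearest start site to that far bin was that of Mvb12b, an ESCRT-I subunit, at 72.1 kb. A 130 kb loop lay wholly within the intron between exons 2 and 3, from chr2:34360001-34370000 to chr2:34230001-34240000 (FDR 0.0439). From the same intron, chr2:34340001-34350000 was looped over 290 kb to chr2:34630001-34640000 upstream (FDR 0.0554), 115 kb from the start site of Gapvd1, a regulator of Rab5 and endocytosis. A single loop spanned Pbx3, from chr2:33970001-33980000 to chr2:34640001-34650000 (670 kb, FDR 0.0153). Its anchors were the bins next to the far anchors of the 410 and 290 kb loops. No anchored loop of Pbx3 had an FDR below 0.01, and 1 of the 3 was below 0.05. Its rank by window loops depended on the limit. Below 0.05 it kept 6 of the 11, as many as Pknox1 and Tgif1. Below 0.01 it kept 0, while Pknox2 and Tgif1 kept 4 each, and 48.0% of the whole list was below that limit.

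Pknox2 is the longest of the 9 genes (chr9:36890982-37147407, minus strand, 256.4 kb) and encodes PREP2. Both of its loops had an FDR below 0.01. A 320 kb loop joined chr9:36900001-36910000, with exon 10 of its 13 exons, with chr9:37220001-37230000 upstream of the gene, a bin that overlaps Tmem218 and Slc37a2 (FDR 0.000796). TMEM218 is a protein of the ciliary transition zone and SLC37A2 a sugar phosphate transporter. The other loop lay within the gene and joined the start-site bin chr9:37140001-37150000, with exon 1, with chr9:36970001-36980000 in the intron between exons 3 and 4 (170 kb, FDR 0.00662). The remaining 2 loops of its window lay upstream, 302594 bp or more from the start site.

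Pknox1, which encodes PREP1, is shorter (chr17:31564734-31607693, plus strand, 43.0 kb) and had no anchor in the gene. A 130 kb loop spanned it from chr17:31520001-31530000, 34.7 kb upstream of the start site, to chr17:31650001-31660000, 85.3 kb downstream (FDR 0.00205). These bins held the start sites of Ndufv3, a subunit of mitochondrial complex I, and of U2af1, a splicing factor that recognises the 3′ splice site. The start sites of 2 protein-coding genes lay between these bins, those of Pknox1 and of Cbs, the cystathionine beta-synthase gene. The other anchored loop of Pknox1 joined chr17:31350001-31360000 in Slc37a1 with chr17:31480001-31490000, which lay 74.7 kb upstream of the Pknox1 start site (130 kb, FDR 0.0128). Its window held 8 loops, and among them was the loop of lowest FDR in any of the 9 windows, which joined Cryaa, the alpha-A crystallin gene, with Hsf2bp over 340 kb (FDR 2.38e-05).

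Tgif1 (chr17:70844205-70853546, minus strand, 9.3 kb) is, unlike Pknox1, a short gene with its start site in an anchor. The start-site bin chr17:70850001-70860000 held exon 1 of its 3 exons and was looped over 110 kb to chr17:70960001-70970000 upstream (FDR 0.00146). The nearest coding start site to that far bin was that of Myl12b, a myosin light chain, at 20.9 kb. The other anchored loop did not touch the gene and joined chr17:70830001-70840000, 13.5 kb downstream of the start site, with chr17:70750001-70760000 in Dlgap1, a scaffold gene of the postsynaptic density (80 kb, FDR 0.0341). A pair of loops spanned Tgif1, which 10.4% of genes reached. The first joined Dlgap1 (chr17:70720001-70730000) with Myl12b (chr17:70970001-70980000) over 250 kb with an FDR of 0.00026, the lowest of the 21 loops anchored at or spanning a member. The second joined Dlgap1 with Lpin2 over 470 kb (FDR 0.0524). The start-site loop of Tgif1 therefore ran inside the loop between Dlgap1 and Myl12b, with its far anchor in the bin next to the outer loop's anchor at Myl12b.

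The 3 genes without an anchored loop had more start sites around them than the median gene, which had 29. Meis3 (chr7:16175090-16186504, plus strand, 11.4 kb) had 45 other start sites within 1 Mb, a number that 30.2% of genes reached. Pbx4 (chr8:69832491-69872292, plus strand, 39.8 kb) had 66, which 14.9% reached. Pbx2 (chr17:34591266-34597400, plus strand, 6.1 kb) had 118, which 0.198% reached. These were the highest numbers among the 9 genes, and the 6 with an anchored loop had 1 to 39. Over all genes, 74.4% of the 5628 with at most 15 other start sites had an anchored loop, compared with 47.9% of the 5511 with at least 50. Neighbouring genes share loops, so that these shares are not over independent genes. They were also not matched for gene length, although the rule counts any anchor in the gene body. The median number of loops in the window was 5 in the first of these groups and 4 in the second. Meis1 and Meis2, with the fewest neighbours of the 9, had 3 and 4 window loops.

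**Figure D4:**
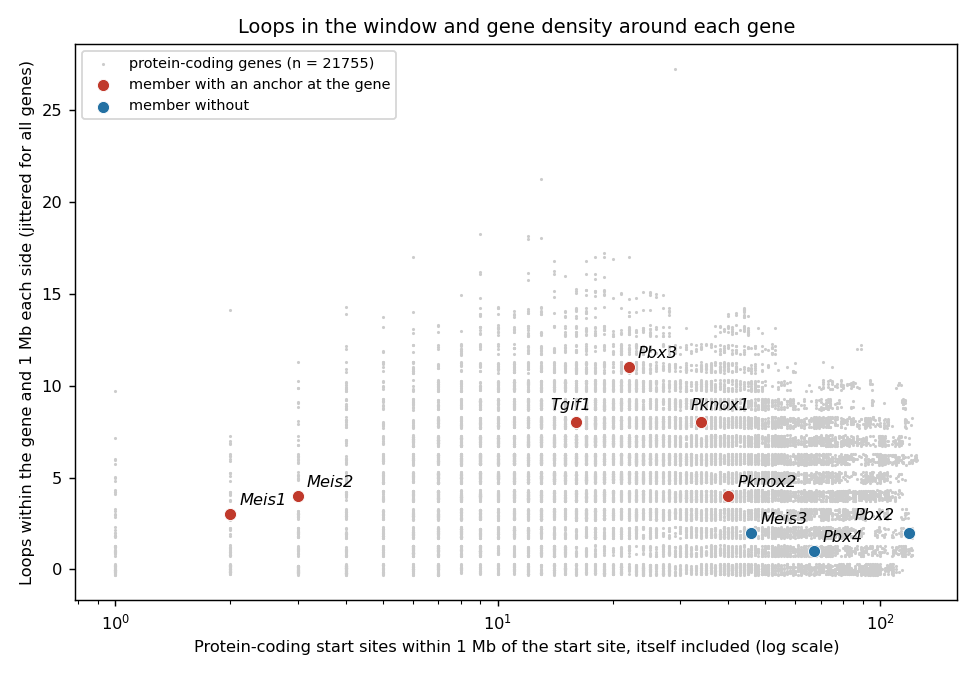
Loops within each gene and its 1 Mb flanks against the number of protein-coding start sites within 1 Mb of the start site, itself included (log scale), for 21755 genes in grey, jittered vertically. The 6 members with an anchored loop are in red and the 3 without in blue. The blue points sit to the right of all red ones and have 1 or 2 loops, while Pbx3 is the highest member with 11.

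Meis3 lay in the longest of these loop-free stretches. Its nearest anchor downstream was chr7:16480001-16490000 at 305 kb, near the start site of Npas1, a bHLH-PAS transcription factor, and the nearest upstream was chr7:6920001-6930000 in Usp29 at 9250 kb. The 9.55 Mb between these bins formed the 7th longest of 11808 gaps between neighbouring anchors and held 131 protein-coding genes, of which 53 were vomeronasal receptor genes (symbols that begin with Vmn) and 12 had symbols that begin with Zfp. Unknown bases made up 0.524% of the gap. How well short reads map to these gene families was not tested, and fewer usable reads and fewer loops there cannot be told apart. Pbx4 lay in a gap of 3.05 Mb with 111 protein-coding genes, between an anchor in Zfp930 at 622 kb upstream and one at 2430 kb downstream, nearest to Ap1m1. The only loop in its window was a 90 kb loop from Atp6v1b2, a proton pump subunit, to Zfp930 (FDR 0.000321). Pbx2, which lies in the major histocompatibility complex, was in a gap of 1.2 Mb with 72 genes, between anchors 781 kb upstream near Kank3 and 419 kb downstream at Vars and Vwa7. A CTCF consensus match was found in 48.3% of the bins of the Pbx2 gap, 34.4% for Pbx4 and 25.4% for Meis3, beside 21.4% for the genome. These shares were not matched for base composition, and whether CTCF has a part in the gaps was not tested.

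The other TALE genes Irx1 to Irx6 and Mkx were set beside the 9 for comparison. The Irx genes form clusters in which neighbours share loops. Of these 7 genes, 6 had an anchored loop (Irx4 had none), 3 had the start site in an anchor bin and 5 were spanned. Their 12 loops ran from 190 to 1170 kb with a median of 535 kb, and 8 of them had an FDR below 0.05. A CTCF consensus match was found in 8 of their 20 anchor bins, or 40% (95% Wilson interval 21.9 to 61.3), which overlaps the interval of the 9 genes. No loop had both anchors within one of these genes, none of which reaches 100 kb. The sets differ in gene length and clustering, and the difference in median distance was not tested.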

How the data were processed

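Per the labels and the study's methods, the authors aligned Micro-C reads to mm10 (GRCm38) with BWA-MEM and removed duplicates. By the study's account, only read pairs between chromosomes, in unusual orientation or beyond a minimum distance were kept. Mitochondrial and Y chromosome reads were left out. The authors pooled the 4 replicates and ran the Mustache loop caller at 10 kb. The deposited FDR of each loop is the q-value given by the authors' loop caller. The deposited score is the detection scale, used only as a filter. Depth per replicate is not in the deposited list, but the study's supplement gives it. The replicate that the study's results call technical had the most read pairs after duplicate removal, so the pooled list draws most on it. The precision of a share is its 95% Wilson interval, which covers counting error only.

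Gene records came from GENCODE vM21, and positions are 1-based. The 5′ end of a gene record was taken as its start site, and loop distance runs between bin starts. A spanned gene lies between the inner ends of the anchors. Exons are those of 1 transcript per gene. The CTCF consensus was written from general knowledge, with at most 1 mismatch, and the best match set the orientation. Python 3.11.15, numpy 2.4.6, pandas 2.3.3, scipy 1.17.1 and matplotlib 3.10.9 were used, and loop classes and motif search were tested on simulated data. No test between groups was made.

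All 9 members are named, with the coding genes in each anchor of their loops, or the nearest start site, and the nearest anchors and the spanning loop of lowest FDR. Genes beyond this rule, such as Cryaa and Cbs, were named after their values were seen. The members and lists were chosen with earlier results of these data known. Alternatives were stricter FDR limits, the smallest detection scale, other windows, flanks, start sites and span rules, and other mismatch limits.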

Additional observations from a re-analysis of the deposited data

How the results depend on the processing

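Of 33 alternatives, 25 left a count within 1.5 times of its value, or the CTCF share within its interval. At an FDR below 0.01 the anchored loops fell from 17 to 8, the spanning loops from 8 to 4 and the loops in the windows from 43 to 15. The smallest detection scale left 5 spanning loops, and flanks of 500 and 2000 kb gave 25 and 77 window loops. With no mismatch, 3.23% of the members' anchor bins held a CTCF match, and with at most 2 mismatches 100% did, against 13.6% and 93.7% of all anchor bins, so that the share depends on the limit. At an FDR below 0.05 Meis1 kept all 3 loops of its pattern, and Meis2 lost the 2 that reach its distal bin. At an FDR below 0.01 Meis1 also lost its 740 kb loop, so that neither gene had the pattern. The smallest detection scale left out the 740 kb loop of Meis1 and the 720 kb loop of Meis2, and with them the pattern at both genes. No paired analysis was possible because loops were called once, on the pooled replicates, with no values for each. Why a loop is missing from the list was not tested, and the list gives no depth.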
